A study of Mus musculus with 16 samples.

Results

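The 78 genes described here encode the mitochondrial ribosomal proteins of the mouse. They were chosen by name alone, as every protein-coding gene whose symbol is Mrpl or Mrps followed by a number and an optional letter, and they are 78 of the 46078 genes in the table. The Mrpl prefix gave 49 genes and the Mrps prefix 29. By the current assignment of the proteins, 51 belong to the large subunit and 26 to the small subunit, because Mrps18a and Mrps30 sit in the large subunit in spite of their names. Mrps36 belongs to neither, since its protein is part of the 2-oxoglutarate dehydrogenase complex. Of the 78, 77 had enough counts to be tested among 12910 genes.

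Liver messenger RNA was sequenced in 16 libraries from C57BL/6 mice aged 22 weeks, all with diet-induced obesity and a steatotic liver. The mice of the 4 Dicretin libraries received a co-agonist of the receptors for glucagon-like peptide-1 (GLP1R) and glucagon. Those of the 4 Semaglutide libraries received a GLP1R agonist. The mice of the 4 calorie-restricted libraries were brought to an equivalent weight loss by diet, and those of the 4 saline libraries received the vehicle. Doses, treatment times and sex are not given in the labels, and no lean group is among the samples. Each library is named by its group and the number in its title, and nothing beyond that number says that each came from a separate animal, so p-values measure only the spread between these libraries.

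Mitochondria translate the few proteins of their own genome on a ribosome whose RNAs come from that genome and whose proteins all come from nuclear genes, are made in the cytosol and are imported. Most of the products are core subunits of the respiratory chain, so a liver cell that builds respiratory capacity needs both sets of genes. Part of the mitoribosomal proteins descend from bacterial ribosomal proteins and the others are specific to mitochondria. In mammals, the nuclear genes for mitochondrial translation are known for promoters with sites for NRF1, for ETS factors such as GABP and for YY1, and the coactivator PGC-1 alpha, encoded by Ppargc1a, acts with NRF1, GABP and the estrogen-related receptor ERR alpha.

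The upstream windows are printed for 6 of the members that were higher in Dicretin livers than in saline livers. Motif matches were not set against the changes in level. Each window runs from 250 bases before to 50 bases after the annotated start, from RefSeq on build GRCm38.p6, 5′ to 3′ on the strand of the gene. Capitals mark letters that match the NRF1 motif (GCGCA, any base, GCGC), the ETS motif CCGGAAG, the YY1 motif AAGATGGCG or the SP1 motif GGGCGG on either strand. Mrps31 lies on the plus strand at chr8:22411090-22411389, Mrps23 on the plus strand at chr11:88204138-88204437, and Mrpl34 on the plus strand at chr8:71464676-71464975. Mrpl47 lies on the minus strand at chr3:32736706-32737005, Mrps18a on the plus strand at chr17:46110754-46111053, and Mrpl32 on the minus strand at chr13:14612988-14613287.
Mrps31: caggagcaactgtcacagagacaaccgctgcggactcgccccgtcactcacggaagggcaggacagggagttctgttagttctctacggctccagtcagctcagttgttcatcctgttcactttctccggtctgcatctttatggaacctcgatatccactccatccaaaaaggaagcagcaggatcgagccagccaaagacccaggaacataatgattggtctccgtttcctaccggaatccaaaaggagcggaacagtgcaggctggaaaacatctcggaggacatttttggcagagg
Mrps23: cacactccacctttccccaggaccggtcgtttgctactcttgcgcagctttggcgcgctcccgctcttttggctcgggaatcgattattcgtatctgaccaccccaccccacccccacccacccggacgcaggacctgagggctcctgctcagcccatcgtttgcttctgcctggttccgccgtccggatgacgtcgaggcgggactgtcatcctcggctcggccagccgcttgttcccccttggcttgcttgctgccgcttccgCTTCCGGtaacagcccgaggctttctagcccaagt
Mrpl34: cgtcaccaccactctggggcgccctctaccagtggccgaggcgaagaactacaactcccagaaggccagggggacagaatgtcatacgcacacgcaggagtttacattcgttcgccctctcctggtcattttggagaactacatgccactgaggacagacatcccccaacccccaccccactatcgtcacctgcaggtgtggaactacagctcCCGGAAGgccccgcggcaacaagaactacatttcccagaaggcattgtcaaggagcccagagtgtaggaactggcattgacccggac
Mrpl47: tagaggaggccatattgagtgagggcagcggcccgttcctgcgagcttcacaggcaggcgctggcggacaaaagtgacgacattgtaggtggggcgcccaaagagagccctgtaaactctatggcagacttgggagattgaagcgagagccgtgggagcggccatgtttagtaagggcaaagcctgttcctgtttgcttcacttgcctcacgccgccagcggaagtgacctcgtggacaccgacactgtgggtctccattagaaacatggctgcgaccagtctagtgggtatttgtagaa
Mrps18a: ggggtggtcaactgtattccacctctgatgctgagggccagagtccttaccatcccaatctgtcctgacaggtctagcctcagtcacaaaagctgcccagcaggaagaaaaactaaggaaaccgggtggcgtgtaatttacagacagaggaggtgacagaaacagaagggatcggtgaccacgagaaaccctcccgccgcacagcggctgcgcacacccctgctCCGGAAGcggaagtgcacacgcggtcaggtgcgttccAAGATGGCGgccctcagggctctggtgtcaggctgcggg
Mrpl32: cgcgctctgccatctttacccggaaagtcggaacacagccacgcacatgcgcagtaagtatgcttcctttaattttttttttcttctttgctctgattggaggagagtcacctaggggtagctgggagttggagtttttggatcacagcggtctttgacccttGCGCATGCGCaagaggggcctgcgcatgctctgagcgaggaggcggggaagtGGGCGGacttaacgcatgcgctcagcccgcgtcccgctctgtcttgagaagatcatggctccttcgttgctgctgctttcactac

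Among these 6 windows, Mrps23 and Mrpl34 hold an ETS match, Mrps18a an ETS and a YY1 match, and Mrpl32 an NRF1 and an SP1 match. The windows of Mrps31 and Mrpl47 hold no match to any of the 7 motifs searched. A window was found for 69 members, and those of Mrpl13, Mrpl15, Mrpl19, Mrpl38, Mrpl4, Mrpl54, Mrps28, Mrps34 and Mrps35 were not matched. The NRF1 motif occurred in 13 of the 69 members (18.8%), against 5.19% of all genes with a window and 11.4% of tested protein-coding genes. The ETS motif occurred in 26 members (37.7%), against 9.93% of all genes and 19.8% of tested protein-coding genes. The YY1 motif occurred in 8 members (11.6%), against 1.64% and 3.61%. At least 1 of these 3 motifs was present in 41 members (59.4%), against 15.1% of all genes and 30.9% of tested protein-coding genes.

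The other motifs were no more frequent in members than in tested protein-coding genes. The SP1 motif GGGCGG occurred in 34 members (49.3%), against 67.3% of tested protein-coding genes, and the E-box CACGTG in 5 (7.25%), against 11.7%. The cAMP response element TGACGTCA occurred in 2 members, Mrpl16 and Mrpl49 (2.9%), against 3.47%, and the ERR motif TCAAGGTCA in 0 members, against 0.321%. All motifs were searched on both strands, and shares count genes with at least 1 match. A match describes letters in a window, not a bound site.

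The members lie on 17 chromosomes. Their median exon length, counted over all annotated exons, was 2394 bases, against 4334 bases for all tested genes, and 59 of the 78 were below 4334 bases. Their median GC content was 49.8%, against 49.5% for all tested genes. Of the 78 members, 18 (23.1%) start within 1000 bases of another protein-coding gene transcribed away from them in the opposite direction. Pairs whose 5′ ends overlap, such as Mrps11 and Mrpl46, are left out of this share. The share was 6.83% over all protein-coding genes, tested or not, and was not taken over tested genes alone. Such pairs include Mrps12 with Sars2, Mrpl32 with Psma2, Mrpl40 with Hira and Mrpl49 with Fau. Exons of 28 members overlap a gene on the opposite strand, and exons of 8 members overlap one on the same strand, with no share over all genes taken. The strand setting of the counting was not given, so the levels of these members are uncertain. Among the printed genes, Mrpl47 shares 1068 exon bases with a gene on the opposite strand, whereas Mrps31, Mrps23, Mrpl34, Mrps18a and Mrpl32 share none.

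The only member without enough counts was Mrpl53, a mitochondria-specific protein of the large subunit, which was listed at 0 in all 16 libraries. It lies at chr6:83109040-83109939 in GRCm38, and 695 of its 790 exon bases overlap a gene on the same strand. The 37 genes of the mitochondrial genome, which include the RNAs of this ribosome, were also all listed at 0, so the proteins could not be set against their RNA partners.

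Library totals ranged from 12.144 to 18.755 M counts, and members took between 0.247% and 0.411% of them. CPM values are counts divided by the TMM-scaled library total in M. RPKM divides CPM by the length of all annotated exons in kilobases, so it ranks genes only roughly. By mean RPKM over the 16 libraries, Mrps21 (74.6), Mrpl12 (69.2), Mrpl34 (67.2), Mrpl14 (61.9) and Mrpl2 (46.0) were the most abundant. Mrpl12 forms part of the stalk that recruits translation factors to the ribosome. The lowest were Mrps25 (2.51), Mrpl19 (2.73), Mrpl33 (3.52), Mrpl3 (3.59) and Mrps30 (3.83). Low ranks depend on the length used. Mrpl33 has 7326 exon bases and a longest transcript of 2741, Mrpl3 6661 and 3972, and Mrps30 6666 and 3803. Ranks by transcript length were not taken. The median member stood at 13.6 RPKM. For the median member, the mean of the highest of the 4 groups was 1.41 times that of the lowest group.

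The libraries differed in how their counts followed gene length, and its part in the member values was not tested beyond the length-corrected fits given beside them. In each library, the log2 CPM of every tested gene was expressed as a deviation from its mean over the 16 libraries, and the slope of these deviations on log2 exon length was taken. The slope ran from 0.18 in Dicretin 14 to -0.27 in Semaglutide 11, where short genes stood highest relative to long ones. The other Dicretin libraries had slopes of -0.0047 (23), -0.098 (64) and -0.12 (65), and the other Semaglutide libraries 0.043 (15), -0.040 (31) and 0.053 (51). The calorie-restricted libraries had slopes of 0.095 (7), 0.0038 (8), 0.10 (52) and 0.11 (79). The saline libraries had the narrowest span, with 0.033 (35), -0.0065 (50), -0.031 (73) and -0.046 (78).

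The median deviation of the 77 members ran in nearly the reverse order of these slopes. Semaglutide 11 was highest at 0.67, with 76 of 77 members above their own mean, and Dicretin 14 was lowest at -0.31, with 3 of 77. The other Dicretin libraries stood at 0.14, 0.30 and 0.34, and the other Semaglutide libraries at -0.05, 0.12 and -0.18. The calorie-restricted libraries stood at -0.24, 0.05, -0.24 and -0.26, and the saline libraries at -0.23, -0.07, -0.06 and 0.00. The libraries with the 3 most negative slopes, Semaglutide 11, Dicretin 65 and Dicretin 64, held the 3 highest member medians in that order. The members are among the genes from which the slope was taken, and both values come from the same counts. After the trend was removed as an offset, the spread was smaller. Semaglutide 11 (0.41), Dicretin 65 (0.26) and Dicretin 64 (0.22) still stood highest, while saline 35 (-0.23) was then lowest and Dicretin 14 stood at -0.18.

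**Figure D1:**
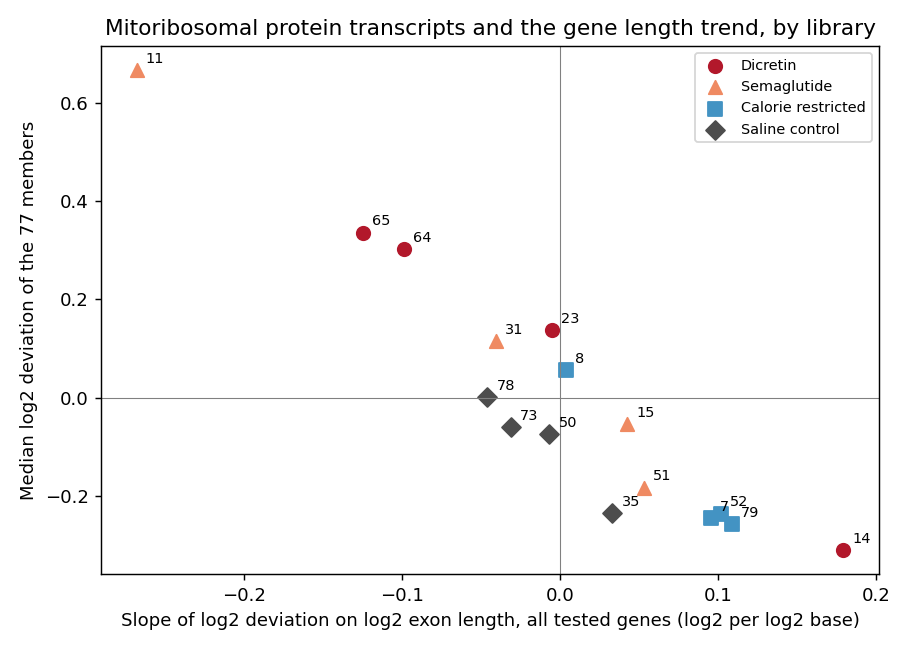
Each point is 1 library, labelled with its number; the x axis is the slope of the log2 deviation of all tested genes on log2 exon length and the y axis the median log2 deviation of the 77 tested members. Semaglutide 11 (slope -0.27, members 0.67) and Dicretin 14 (slope 0.18, members -0.31) stand at opposite ends.

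The summed level of the members gave the same picture. The sum was 2322, 3367, 3729 and 3880 CPM in Dicretin 14, 23, 64 and 65, with a mean of 3325 ± 702 CPM (SD, n = 4). It was 4825, 2844, 3229 and 2590 CPM in Semaglutide 11, 15, 31 and 51 (3372 ± 1003 CPM), and 2531, 3075, 2466 and 2495 CPM in calorie-restricted 7, 8, 52 and 79 (2642 ± 290 CPM). In saline it was 2471, 2778, 2852 and 2933 CPM (2759 ± 202 CPM). Dicretin 23, 64 and 65 lay above every saline library and Dicretin 14 below all of them. The large and small subunits moved together, with 1613 and 695 CPM in Dicretin 14, and 3440 and 1360 CPM in Semaglutide 11. In bulk liver, fewer cells of a type and less RNA per cell cannot be told apart.

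**Figure D2:**
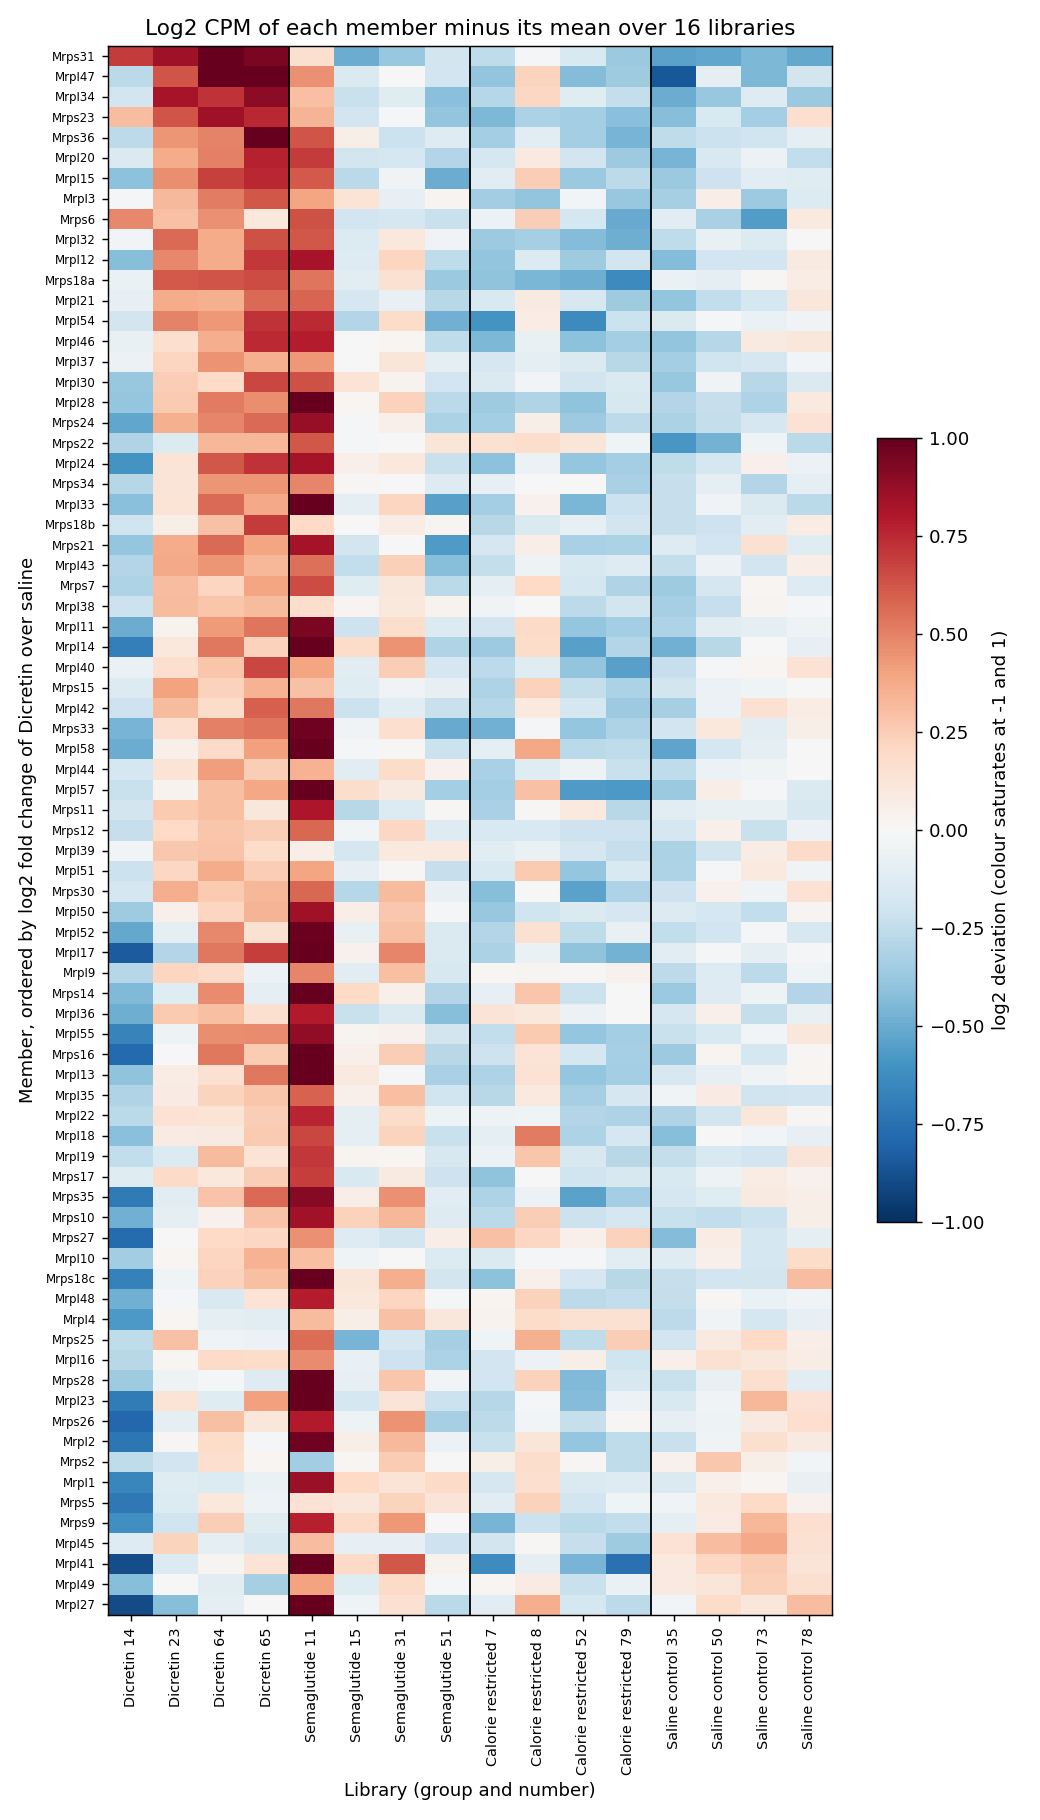
Rows are the 77 tested members, ordered by log2 fold change of Dicretin over saline, and columns are the 16 libraries; colour is the log2 CPM minus the member's mean over all libraries. Semaglutide 11 is above the mean in 76 of 77 members and Dicretin 14 in 3, while Mrps31 in the top row is high in all 4 Dicretin libraries.

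Because Dicretin 14 and Semaglutide 11 stand apart, the members in each comparison are given with all 16 libraries, after removal of the length trend, and without these 2 libraries. These 2 hold the lowest and the highest member median of the 16. Leaving them out therefore raises the Dicretin and lowers the Semaglutide member values by that choice. Counts without them describe how far the results rest on these libraries and are no support for a change. Values of other gene lists come from the fit with all 16 libraries and no length correction, except where stated. Each log2 fold change carries its SE after the ± sign. Tests are edgeR's quasi-likelihood tests, adjusted by Benjamini-Hochberg over all tested genes, and a gene passes at an adjusted p under 0.05. The 3 comparisons with saline share the same 4 saline libraries.

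In Dicretin livers, 11 of 77 members rose and 1 fell against saline, and the median log2 fold change was 0.23, with 61 members above 0. The members that rose came from both subunits, with 8 of 50 from the large and 2 of 26 from the small, plus Mrps36. The 12 called members are 15.6%, while 36.7% of all tested genes were called, 17.5% higher and 19.2% lower, with a median of -0.01. The share of members called was below the share of all tested genes, and the median of the members was above theirs. After removal of the length trend, 25 rose and 3 fell, or 36.4% against a background of 41.3% (21.9% higher and 19.4% lower). Without Dicretin 14 and Semaglutide 11, 39 rose and 0 fell, against a background of 42.4% called and 20.6% called higher, with a median of 0.36. The count of members that rose was 25 without Dicretin 14 alone, where 36.8% of all genes were called and 17.9% were higher, and 17 without Semaglutide 11, where 40.7% were called and 19.9% were higher. It was 7 without Dicretin 64 (34.2% called) or Dicretin 65 (34.1% called), and 5 without saline 35 (30% called).

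**Figure D3:**
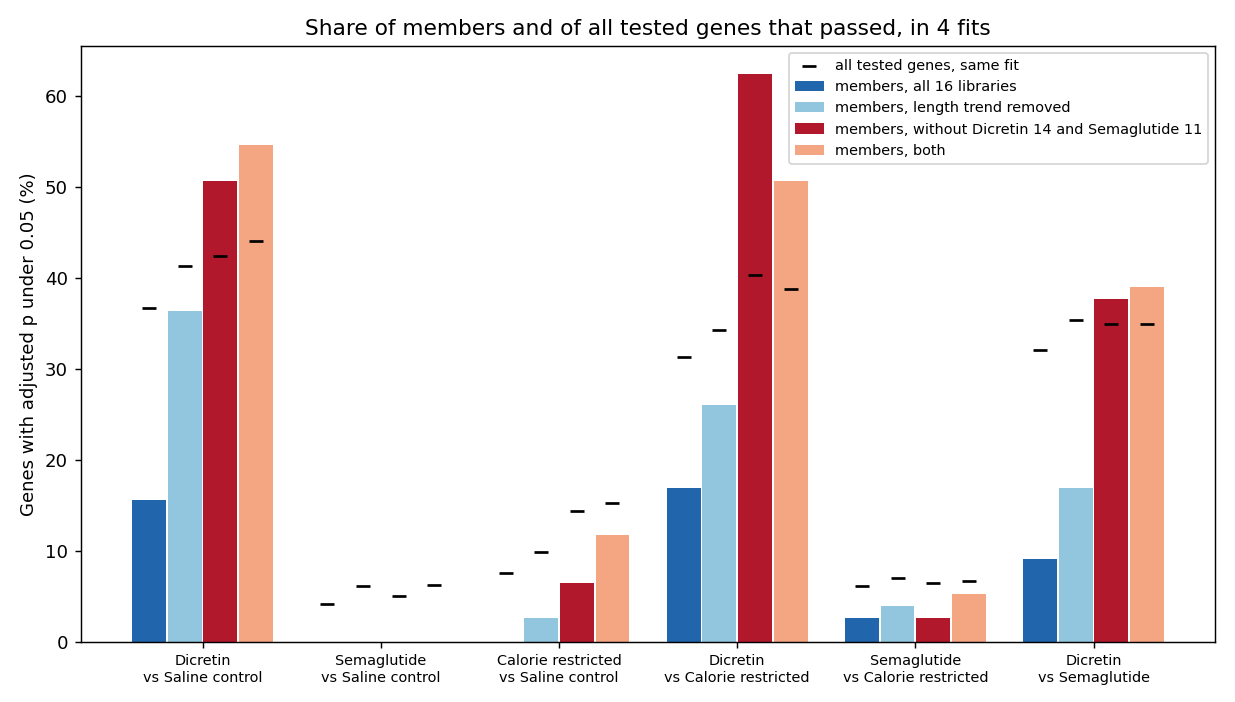
Bars give the percent of the 77 members with an adjusted p under 0.05 in each comparison under 4 analyses, and black dashes the percent of all tested genes under the same analysis. In Dicretin over saline 15.6% of members were called with all libraries, below the background of 36.7%, and 39 of 77 without 2 libraries, where the background was 42.4%. The 2 libraries left out hold the lowest and the highest member median, so that count follows in part from their choice.

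Mrps31, a mitochondria-specific protein of the small subunit (chr8:22411361-22429665, plus strand), differed most. It had 63.9, 70.8, 92.3 and 75.6 CPM in the Dicretin libraries 14, 23, 64 and 65, against 27.1, 27.4, 28.8 and 27.5 CPM in saline 35, 50, 73 and 78. Semaglutide libraries had 44.1, 27.96, 30.3 and 34.8 CPM and calorie-restricted libraries 33.0, 39.1, 35.4 and 30.4 CPM. Every Dicretin library, library 14 included, lay above all 12 others. The log2 fold change was 1.45 ± 0.15 over saline (adjusted p = 9.58e-07), 1.14 ± 0.15 over Semaglutide (adjusted p = 1.63e-05) and 1.13 ± 0.15 over calorie restriction (adjusted p = 1.83e-05). Against saline it stood at 1.48 ± 0.13 with the length trend removed. All 3 calls held in each of the 30 alternative settings run.

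Mrps23, another mitochondria-specific protein of the small subunit (chr11:88204388-88211507, plus strand), had 39.9, 49.8, 58.1 and 54.3 CPM in Dicretin livers, against 23.9, 28.96, 25.4 and 36.1 CPM in saline. It had 40.6, 28.2, 31.8 and 24.4 CPM in Semaglutide and 23.5, 25.8, 25.4 and 23.98 CPM in calorie restriction. All Dicretin libraries were above the saline and calorie-restricted ones, while Semaglutide 11 lay just above Dicretin 14. The log2 fold change was 0.82 ± 0.17 over saline (adjusted p = 0.00103), 0.69 ± 0.17 over Semaglutide (adjusted p = 0.00430) and 1.03 ± 0.17 over calorie restriction (adjusted p = 0.000176). These calls also held in all 30 settings.

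Mrpl34, a short homologue of a bacterial large-subunit protein with 607 exon bases (chr8:71464959-71465747, plus strand), had 34.1, 68.7, 64.2 and 72.1 CPM in Dicretin livers, against 27.5, 29.8, 35.5 and 30.02 CPM in saline. Dicretin 14 lay inside the saline range and the other 3 Dicretin libraries well above it. The log2 fold change over saline was 0.96 ± 0.21 (adjusted p = 0.00143), and it was 1.16 without Dicretin 14 and Semaglutide 11. Mrpl47, a homologue of a bacterial protein near the exit tunnel, had 15.1, 28.3, 36.5 and 38.1 CPM in Dicretin livers, against 10.1, 17.1, 13.3 and 16.1 CPM in saline. Here too library 14 overlapped saline and the other 3 did not. The log2 fold change was 1.06 ± 0.26 (adjusted p = 0.00346), and the calls of both genes over saline held in all 30 settings.

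The remaining members that rose over saline did so by less. Mrpl3, a bacterial homologue of the large subunit, had 23.1, 29.3, 33.3 and 36.02 CPM in Dicretin livers, against 18.5, 24.4, 18.1 and 21.3 CPM in saline, a log2 fold change of 0.56 ± 0.16 (adjusted p = 0.0118). Mrpl32, which in mouse is cut by a mitochondrial protease before it joins the ribosome, had 28.98, 43.9, 38.3 and 46.1 CPM in Dicretin livers, against 24.8, 28.1, 26.9 and 29.5 CPM in saline (0.52 ± 0.17, adjusted p = 0.0214). In both genes Dicretin 14 lay inside the saline range. Mrpl3 shares 248 exon bases with a gene on the same strand, so its level is uncertain. Mrpl37 (0.44 ± 0.14), Mrps36 (0.67 ± 0.22), Mrpl20 (0.64 ± 0.21), Mrps18a (0.50 ± 0.18) and Mrpl15 (0.64 ± 0.24) had adjusted p-values between 0.0208 and 0.0449. Mrpl37 is specific to mitochondria, while Mrpl20 and Mrpl15 have bacterial homologues. The calls of these 5 and of Mrpl32 depended on single libraries. Without saline 35, for example, each of Mrpl32, Mrps36, Mrpl37, Mrpl20, Mrps18a and Mrpl15 lost its call, with adjusted p-values over all single omissions reaching 0.0633 for Mrpl32, 0.101 for Mrps36, 0.0654 for Mrpl37, 0.0842 for Mrpl20, 0.0841 for Mrps18a and 0.123 for Mrpl15. Those calls were also lost without Dicretin 23 for Mrpl32, Mrps18a and Mrpl15, without Dicretin 64 for Mrpl37, Mrpl20, Mrps18a and Mrpl15, and without Dicretin 65 for Mrpl32, Mrps36, Mrpl20, Mrps18a and Mrpl15. The same happened to Mrpl20 without saline 78, to Mrps18a and Mrpl15 without saline 50, 73 or 78, and to Mrpl15 without calorie-restricted 79. With all libraries kept, Mrpl15 also lost its call when the length trend was removed, with limma-voom and with upper quartile factors (adjusted p up to 0.0718), and Mrps18a with upper quartile factors (adjusted p = 0.0652).

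Mrpl49, a mitochondria-specific protein of the large subunit, was the member that fell. It had 26.1, 35.1, 32.6 and 27.97 CPM in Dicretin livers, against 37.4, 38.2, 41.6 and 39.3 CPM in saline. The groups did not overlap, but the log2 fold change was -0.36 ± 0.14 with an adjusted p of 0.0481, and the call was lost in 22 of 30 settings. Those include the omission of any saline library, any calorie-restricted library, Dicretin 14, 64 or 65, or Semaglutide 31 or 51, with an adjusted p of up to 0.145. Mrpl49 starts 59 bases from the oppositely transcribed Fau and shares 91 exon bases with a gene on the other strand, so its level is uncertain. In all, 3 members lay wholly above saline in Dicretin (Mrps31, Mrps23 and Mrps6) and Mrpl49 wholly below. Such separation was seen in 34.2% of all tested genes. Mrps6, a small-subunit homologue of a bacterial protein with 464 exon bases shared with a gene on the same strand, which is named for this separation after its values were seen, had 14.9, 13.1, 14.7 and 11.5 CPM in Dicretin livers, against 9.89, 8.49, 7.21 and 11.4 CPM in saline (log2 fold change 0.56 ± 0.22, adjusted p = 0.0524).

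**Figure D4:**
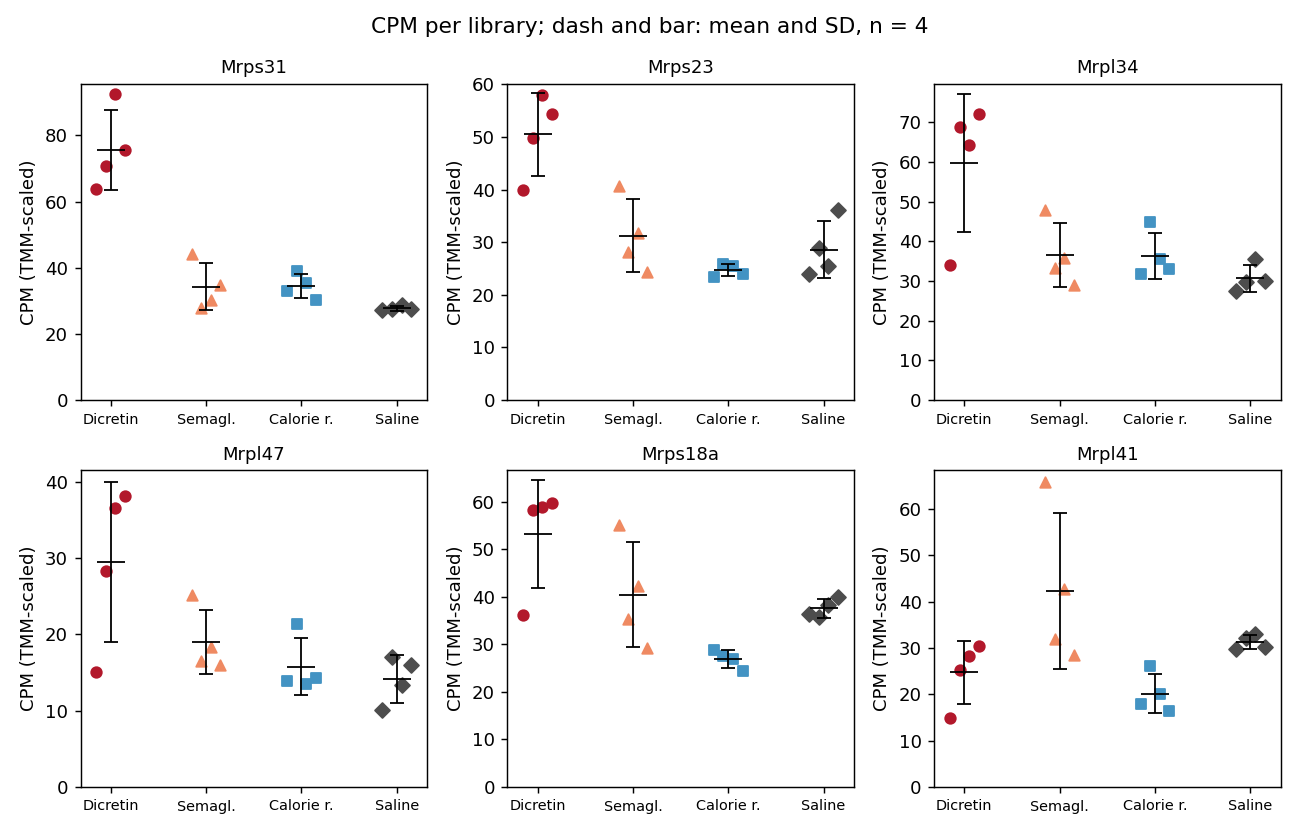
Points are single libraries in CPM for 6 members, with the group mean and SD (n = 4) in black, and groups run from Dicretin on the left to saline on the right. Mrps31 is separate from all other groups in Dicretin, Dicretin 14 falls within the range of saline for Mrpl34, Mrpl47 and Mrps18a, and Mrpl41 is highest in Semaglutide 11.

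The 25 that rose after removal of the length trend included Mrpl12 (0.50 ± 0.15, adjusted p = 0.0112), Mrps34 (0.39 ± 0.13, adjusted p = 0.0203), Mrps18b (0.36 ± 0.14, adjusted p = 0.0395) and Mrps22 (0.45 ± 0.18, adjusted p = 0.0475). In people, MRPS34 and MRPS22 are genes of inherited mitochondrial disease. Without the correction these 4 stood at 0.51 ± 0.23, 0.39 ± 0.17, 0.36 ± 0.17 and 0.41 ± 0.18 and did not pass, with adjusted p-values from 0.0824 to 0.0919. Mrps34 shares 763 exon bases with genes on the same strand and 1309 with genes on the opposite strand. Mrps18b shares 638 and Mrpl12 200 with genes on the opposite strand, so the levels of these members are uncertain. The 3 that fell after the correction were Mrpl27, Mrpl49 and Mrpl41. Among members shorter than the member median, 16 of 39 rose with the correction and 4 without it. Among longer ones, 9 of 38 rose with it and 7 without it. Over all tested genes, 21.9% were higher with the correction and 17.5% without it. The share was not taken over all short genes in the corrected fit, so these counts are not a result about short members. Of the 50 members without an opposite-strand overlap, 9 were higher and 0 lower before the correction, where 17.5% of all tested genes were higher and 19.2% lower.

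Several members of the panel chosen for their roles did not pass in any comparison of all 16 libraries. Mrps12, a homologue of a bacterial protein of the decoding centre, had 29.2, 39.2, 41.5 and 40.6 CPM in Dicretin livers, against 30.2, 35.4, 29.3 and 32.9 CPM in saline (log2 fold change 0.23 ± 0.15, adjusted p = 0.252). Mrpl58, which releases peptides from stalled ribosomes, had 42.1 ± 10.4 CPM in Dicretin, against 35.2 ± 5.36 CPM in saline (SD, n = 4; 0.26 ± 0.25, adjusted p = 0.452). Mrps2 averaged 37.5 ± 5.13 CPM in Dicretin livers, against 41.5 ± 3.88 CPM in saline livers (SD, n = 4; -0.15 ± 0.15, adjusted p = 0.458). Mrpl44, Mrps7, Mrpl10, Mrpl11, Mrps16, Mrpl57 and Mrps18c had log2 fold changes of 0.26 ± 0.15, 0.33 ± 0.19, 0.09 ± 0.15, 0.31 ± 0.24, 0.19 ± 0.26, 0.25 ± 0.27 and 0.06 ± 0.24. Over the 6 comparisons, 57 members were called in none and 20 in at least 1.

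The genes around the mitoribosome differed in different ways between Dicretin and saline. Of all tested genes, 36.7% were called in this fit, 17.5% higher and 19.2% lower. The counts of other lists in this comparison are to be read beside these shares. Among 9 regulators of mitochondrial biogenesis, 4 rose. Ppargc1a averaged 64.1 ± 10.5 CPM in Dicretin and 9.02 ± 1.01 CPM in saline (log2 fold change 2.83 ± 0.16, adjusted p = 1.08e-09), and Esrra, which encodes ERR alpha, 88.1 ± 24.3 and 30.2 ± 2.96 CPM (1.55 ± 0.20, adjusted p = 9.92e-06). Nrf1 rose by 0.64 ± 0.15 (adjusted p = 0.00296) and Myc by 1.26 ± 0.46 (adjusted p = 0.0374). Gabpa had 0.01 ± 0.15, Yy1 0.22 ± 0.13, Ppargc1b -0.22 ± 0.33 and Pprc1 0.10 ± 0.27, and none of these 4 passed. Tfam, which packages and transcribes the mitochondrial genome, averaged 54.8 ± 6.22 CPM in Dicretin livers, against 56.7 ± 9.58 CPM in saline livers (-0.05 ± 0.17, adjusted p = 0.844).

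Of 73 nuclear respiratory chain and ATP synthase subunits, 21 rose and 0 fell, with a median log2 fold change of 0.46. The share called, 28.8%, was below the 36.7% of all tested genes, and the share called higher was above their 17.5%. Of 77 cytosolic ribosomal proteins, 40 rose and 0 fell (51.9%), with a median of 0.66. Both medians were above the 0.23 of the mitoribosomal members, against -0.01 for all tested genes, and no test of the difference between these lists was made. With the length trend removed, 39 of the 73 subunits rose and 1 fell, and 66 of the 77 cytosolic ribosomal proteins rose and 0 fell. In that fit 41.3% of all genes were called. The 5 mitoribosomal proteins with other names, Dap3, Ptcd3, Aurkaip1, Chchd1 and Gadd45gip1, had 0 calls and log2 fold changes between -0.39 ± 0.16 (Dap3) and 0.46 ± 0.21 (Gadd45gip1).

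Factors that assemble the mitoribosome and modify its RNA split, with 5 of 29 higher and 2 lower. Fastkd2 (0.74 ± 0.18), Dhx30 (0.56 ± 0.15) and Mterf3 (0.59 ± 0.17) rose, while the RNA methyltransferase Mettl15 had -1.54 ± 0.27. Of 14 mitochondrial translation factors, 0 passed, with a median of -0.05 and 3 at an unadjusted p under 0.05. Among 17 mitochondrial aminoacyl-tRNA synthetases, Yars2 (0.74 ± 0.16) and Cars2 (0.48 ± 0.17) rose, while Aars2 (-0.62 ± 0.20) fell. Among 15 genes that copy, transcribe and process the mitochondrial genome, 4 rose and 3 fell, led by Trmt10c (1.11 ± 0.16), a subunit of the mitochondrial RNase P, and Fastkd5 (1.07 ± 0.22), with the transcription termination factor family gene Mterf2 at -2.90 ± 0.44 and Polg2 at -1.13 ± 0.29. Of 16 genes of protein import, the outer membrane and the matrix, 4 rose, with Hspa9 at 1.14 ± 0.16 and Tomm20 at 1.19 ± 0.21, and the citrate synthase gene Cs fell at -0.56 ± 0.18.

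The liver label was checked against cell type markers, and hepatocyte markers were abundant in all libraries. The 8 measured summed to between 78363 and 98008 CPM in Dicretin libraries, against 97480 to 116696 CPM in saline, and 3 of 8 rose and 1 fell. The 6 macrophage markers summed to 106 to 305 CPM in Dicretin, against 109 to 164 CPM in saline, and 0 of 6 passed. The 6 stellate markers had 2 lower and 182 to 227 CPM in Dicretin, against 186 to 315 CPM in saline. The 3 adipocyte markers stayed at or under 1.49 CPM in all libraries. The part of cell composition in the member values was not tested.

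In Semaglutide livers, 0 of 77 members passed against saline by edgeR, where 4.18% of all tested genes were called (1.56% higher and 2.62% lower), and 13 had an unadjusted p under 0.05. DESeq2 and limma-voom also called 0 members, where they called 7.62% and 4.26% of all genes. The median log2 fold change was 0.30, and 72 of 77 were above 0. This median rested on Semaglutide 11: without that library it was 0.09, while the omission of any other library left it between 0.26 and 0.39. After removal of the length trend 0 members passed, against 6.13% of all genes (2.84% higher and 3.29% lower), and the median was 0.22, and without both libraries that stand apart it was 0.09 with 0 calls. Mrps22, Mrpl1 and Mrpl4 lay wholly above saline and 0 members wholly below, a separation seen in 6.42% of all genes upward and 7.75% downward. Mrps22, a mitochondria-specific protein of the small subunit, had 43.6, 28.2, 28.3 and 30.8 CPM in Semaglutide, against 18.9, 20.4, 27.5 and 23.5 CPM in saline. Its log2 fold change was 0.54 ± 0.18 (adjusted p = 0.104).

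Among the lists around the members, only cytosolic ribosomal proteins had calls in Semaglutide over saline. They had 11 of 77 higher (14.3%, against 4.18% of all genes) and a median of 0.77. Respiratory chain subunits had 0 of 73 called and a median of 0.27. With the length trend removed, 54 of 77 cytosolic ribosomal proteins were higher (70.1%, against 6.13% of all genes called), and respiratory chain subunits stayed at 0 of 73. None of the 9 regulators passed by edgeR, with 1 at an unadjusted p under 0.05. Ppargc1a averaged 8.83 ± 0.359 CPM in Semaglutide and 9.02 ± 1.01 CPM in saline (-0.03 ± 0.16), and Esrra 34.1 ± 7.86 and 30.2 ± 2.96 CPM (0.18 ± 0.20).

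In calorie-restricted livers, 0 of 77 members passed against saline by edgeR, where 7.53% of all tested genes were called (3.42% higher and 4.11% lower), and 5 had an unadjusted p under 0.05. DESeq2 called 1 member lower and limma-voom 0, where they called 11.9% and 8.35% of all genes. The median log2 fold change was -0.08, with 25 members above 0, and it stood at 0.02 with the length trend removed. In the shortest quintile of all tested genes by exon length the median was -0.14 and in the longest 0.10, while the members in the shortest quintile had -0.09. The lowest p belonged to Mrps18a, with 28.7, 27.6, 27.01 and 24.3 CPM in calorie restriction, against 36.3, 35.6, 38.2 and 40.03 CPM in saline. All calorie-restricted libraries lay below all saline ones (-0.48 ± 0.18, adjusted p = 0.114). Mrpl41, a mitochondria-specific protein of the large subunit, had 17.9, 26.1, 20.1 and 16.4 CPM in calorie restriction, against 29.7, 32.1, 33.1 and 30.3 CPM in saline, again without overlap (-0.64 ± 0.24, adjusted p = 0.118). In all, 6 members lay wholly below saline (Mrps18a, Mrpl41, Mrps9, Mrpl45, Mrpl32 and Mrpl49) and 3 wholly above it (Mrps31, Mrpl4 and Mrpl9), against 11.9% and 11% of all tested genes, and those not described elsewhere are named for this separation after their values were seen.

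Fits other than the one with all libraries gave a few calls in calorie restriction. With the length trend removed, Mrpl34 rose (0.44 ± 0.13, adjusted p = 0.0348) and Mrpl41 fell (-0.47 ± 0.13, adjusted p = 0.0257), against a background of 9.9% (5.04% higher and 4.86% lower). Without Semaglutide 11, 2 members fell, with 10.4% of all genes called. Without Dicretin 14 and Semaglutide 11, 1 rose and 4 fell, where 14.4% of all genes were called. Mrps22 rose (0.43, adjusted p = 0.0393). Those that fell were Mrpl45 (-0.43, adjusted p = 0.0178), Mrps18a (-0.48, adjusted p = 0.00913), Mrpl41 (-0.64, adjusted p = 0.00808) and Mrps9 (-0.43, adjusted p = 0.0405). With all libraries and no length correction, 7.53% of all genes were called. In that fit respiratory chain subunits had 0 of 73 called and a median of -0.07. Of 9 regulators, 0 passed by edgeR, with 3 at an unadjusted p under 0.05. Calls in the other pathway lists included the synthetase Pars2 (-0.90 ± 0.26), which was lower. Of the genes that copy, transcribe and process the mitochondrial genome, Mterf2 (-1.83 ± 0.40) and Hsd17b10 (-0.95 ± 0.25) were lower.

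Against calorie-restricted livers, which share the weight loss, 13 of 77 members rose and 0 fell in Dicretin livers, or 16.9% against 31.3% of all tested genes (15.1% higher and 16.2% lower). The median log2 fold change was 0.31, against -0.0033 for all genes, and 65 members were above 0. Large-subunit members made up 10 of the 13 and small-subunit members 2. With the length trend removed, 18 rose and 2 fell, where 34.2% of all genes were called (17.9% higher and 16.3% lower). Without Dicretin 14 and Semaglutide 11, 48 rose and 0 fell, where 40.3% of all genes were called and 19.7% were higher. The count was 34 without Dicretin 14 (33.8% of all genes called, 16% higher), 22 without Semaglutide 11 (35% called, 17.3% higher) and 7 without Dicretin 65 (26.4% called).

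Beside Mrps31 and Mrps23, the clearest of these was Mrps18a, 1 of 3 homologues of a single bacterial protein. It had 36.3, 58.2, 58.9 and 59.7 CPM in Dicretin livers, against 28.7, 27.6, 27.01 and 24.3 CPM in calorie restriction, with no overlap. The log2 fold change was 0.98 ± 0.18 (adjusted p = 0.000518), and the call held in all 30 settings. The mean saline level of Mrps18a, 37.6 ± 1.98 CPM (SD, n = 4), lay between the means of these groups. The other homologues, Mrps18b (0.42 ± 0.17, adjusted p = 0.0614) and Mrps18c (0.19 ± 0.24, adjusted p = 0.578), did not pass. Mrpl32 had 28.98, 43.9, 38.3 and 46.1 CPM in Dicretin livers, against 22.9, 23.4, 21.8 and 21.04 CPM in calorie restriction (0.81 ± 0.17, adjusted p = 0.00143), without overlap and in all 30 settings. Mrpl3 (0.66 ± 0.16, adjusted p = 0.00529) also held in all of them. In all, 9 members lay wholly above calorie restriction in Dicretin and 1 (Mrpl4) wholly below, a separation seen in 13.2% of all genes upward and 15.2% downward.

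The other 8 members that rose were Mrps36 (0.79 ± 0.22), Mrpl47 (0.90 ± 0.26), Mrpl40 (0.61 ± 0.17), Mrpl34 (0.72 ± 0.21), Mrpl37 (0.42 ± 0.14), Mrpl46 (0.65 ± 0.22), Mrpl54 (0.72 ± 0.24) and Mrps30 (0.52 ± 0.19), with adjusted p-values from 0.0110 to 0.0402. Mrpl46 overlaps the member Mrps11 on the opposite strand by 173 exon bases, so its level is uncertain. Mrps30, which sits in the large subunit in spite of its name, shares 623 exon bases with genes on the opposite strand, so its level is uncertain too. Mrps36, Mrpl40, Mrpl37, Mrpl46, Mrpl54 and Mrps30 lost their calls without Dicretin 65. Of these, Mrpl37, Mrpl46, Mrpl54 and Mrps30 also lost them without Dicretin 64 and without calorie-restricted 7, Mrpl46, Mrpl54 and Mrps30 without calorie-restricted 52, Mrpl37, Mrpl46 and Mrps30 without calorie-restricted 79, and Mrpl54 and Mrps30 without Dicretin 23. The highest adjusted p over these omissions was 0.115. Macrophage markers were higher in this comparison, with 4 of 6 passing and sums of 106 to 305 CPM in Dicretin, against 35.8 to 107 CPM in calorie restriction, and their part in the member values was not tested. Of all tested genes, 31.3% were called in this comparison. Respiratory chain subunits had 30 of 73 higher (41.1%, median 0.52), and Ppargc1a (2.47 ± 0.16), Esrra (1.70 ± 0.20) and Myc (2.16 ± 0.48) rose. With the length trend removed, 38 of the 73 subunits were higher and 0 lower, where 34.2% of all genes were called.

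Against calorie-restricted livers, 2 of 77 members rose in Semaglutide livers, Mrpl41 and Mrps9, or 2.60% against 6.12% of all tested genes (3.05% higher and 3.07% lower). The median was 0.35, with 73 members above 0, and 27 had an unadjusted p under 0.05. It was 0.14 without Semaglutide 11 and 0.18 with the length trend removed. Mrpl41 had 65.8, 31.9, 42.7 and 28.4 CPM in Semaglutide, against 17.9, 26.1, 20.1 and 16.4 CPM in calorie restriction. The groups did not overlap (1.07 ± 0.24, adjusted p = 0.0137), and without Semaglutide 11 and Dicretin 14 the log2 fold change was 0.77 (adjusted p = 0.00633). Mrps9, a small-subunit homologue of a bacterial protein, had 48.6, 32.2, 38.2 and 28.2 CPM in Semaglutide, against 20.4, 24.3, 23.4 and 23.8 CPM in calorie restriction (0.68 ± 0.19, adjusted p = 0.0351), again without overlap. The count of members that rose was 7 without Dicretin 14, 8 without Semaglutide 51, 1 without Semaglutide 11 or 31 or calorie-restricted 8, 52 or 79, and 0 without calorie-restricted 7. Of all genes, 8.91% were called without Dicretin 14, 7.33% without Semaglutide 51 and 3.39% without calorie-restricted 7. The call of Mrpl41 was lost without calorie-restricted 7 (adjusted p = 0.0514), and that of Mrps9 without any calorie-restricted library, Semaglutide 11 or Semaglutide 31 (up to 0.113). With the length trend removed, Mrpl32 passed as well (0.63 ± 0.18, adjusted p = 0.0434), where 7.03% of all genes were called (3.49% higher and 3.54% lower). In all, 9 members lay wholly above calorie restriction and 0 wholly below, against 7.45% and 8.13% of all tested genes. Among the regulators, Ppargc1b, which encodes a relative of PGC-1 alpha, rose in this comparison (1.47 ± 0.34, adjusted p = 0.0136), and 0 of 73 respiratory chain subunits passed by edgeR, with 21 at an unadjusted p under 0.05.

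Against Semaglutide livers, 3 of 77 members rose and 4 fell in Dicretin livers, or 9.09% against 32.0% of all tested genes (14.8% higher and 17.1% lower), and the median log2 fold change was -0.03. Mrps31, Mrps23 and Mrpl34 rose. Mrpl34 had 34.1, 68.7, 64.2 and 72.1 CPM in Dicretin livers, against 47.9, 33.2, 35.7 and 29.1 CPM in Semaglutide (0.71 ± 0.21, adjusted p = 0.0127). Dicretin 14 lay inside the Semaglutide range and the other 3 above it. Mrpl1, Mrpl41, Mrps9 and Mrpl4 fell. Mrpl1, a homologue of a bacterial protein at the exit side of the ribosome's transfer RNA path, had 23.5, 34.2, 33.7 and 35.5 CPM in Dicretin livers, against 67.7, 42.7, 40.9 and 42.4 CPM in Semaglutide, with no overlap (-0.61 ± 0.17, adjusted p = 0.0104). Mrpl41 (-0.77 ± 0.24, adjusted p = 0.0206), Mrps9 (-0.52 ± 0.18, adjusted p = 0.0375) and Mrpl4 (-0.37 ± 0.14, adjusted p = 0.0444) complete the set. Respiratory chain subunits had 5 of 73 higher, and Ppargc1a (2.86 ± 0.16), Esrra (1.37 ± 0.20) and Myc (1.89 ± 0.47) rose. With the length trend removed, 28 of the 73 subunits were higher and 1 lower, where 35.3% of all genes were called.

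Without the 2 libraries that stand apart, none of these 4 decreases passed in the fit with no length correction. Without Dicretin 14 and Semaglutide 11, 29 members rose and 0 fell, where 34.9% of all genes were called and 16.6% were higher, and the median was 0.31 instead of -0.03. Mrpl1 then stood at -0.28 (adjusted p = 0.0737), Mrpl41 at -0.30 (adjusted p = 0.191), Mrps9 at -0.23 (adjusted p = 0.268) and Mrpl4 at -0.21 (adjusted p = 0.178). Mrpl1 passed in each omission of a single library. Mrpl41 lost its call without Dicretin 14 or Semaglutide 11 (adjusted p up to 0.0903), Mrps9 without Dicretin 14, 23 or 65, Semaglutide 11 or 31, calorie-restricted 52 or saline 50 (up to 0.125), and Mrpl4 in 13 of 16 omissions (up to 0.138). With only Dicretin 14 left out 7 rose and 1 fell, where 28.9% of all genes were called (13.1% higher and 15.8% lower). With only Semaglutide 11 left out 13 rose and 1 fell, where 32.3% were called (15.3% higher and 16.9% lower). The number that fell was 7 without Semaglutide 15 (27.7% called), and 2 without Semaglutide 31 (27.2% called), calorie-restricted 52 (30.5% called) or saline 50 (29.9% called). After removal of the length trend with all libraries kept, 8 rose and 5 fell, where 35.3% of all genes were called (17.9% higher and 17.4% lower). When both libraries were left out and the trend was removed, 29 rose and 1 fell against a background of 34.9%, and the one that fell was Mrpl41 (log2 fold change -0.44, adjusted p = 0.014). Mrps31 was the 1 member whose Dicretin libraries all lay above all Semaglutide libraries, a separation in this direction seen in 12% of all tested genes. Mrpl1, Mrpl4 and Mrps5 lay wholly below Semaglutide, a separation seen in 14.2% of all genes. Mrps5, named for it after its values were seen, did not pass (-0.32 ± 0.15, adjusted p = 0.112).

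In Semaglutide over calorie restriction the median of all genes followed exon length, and that of the members did not follow it in the same way. From the shortest to the longest quintile of all tested genes by exon length, the median log2 fold change of Semaglutide over calorie restriction was 0.27, 0.09, -0.02, -0.08 and -0.17. The 38 members in the shortest quintile had a median of 0.38, the 14, 11 and 8 members in the next quintiles 0.19, 0.37 and 0.37, and the 6 members in the longest quintile 0.48. In Dicretin over saline both were lower in the longest quintile than in the shortest. The medians of all genes ran from 0.02 in the shortest quintile to -0.04 in the longest, and those of the members from 0.30 to 0.15. The quintiles of the members beyond the shortest hold under 20 genes each.

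**Figure D5:**
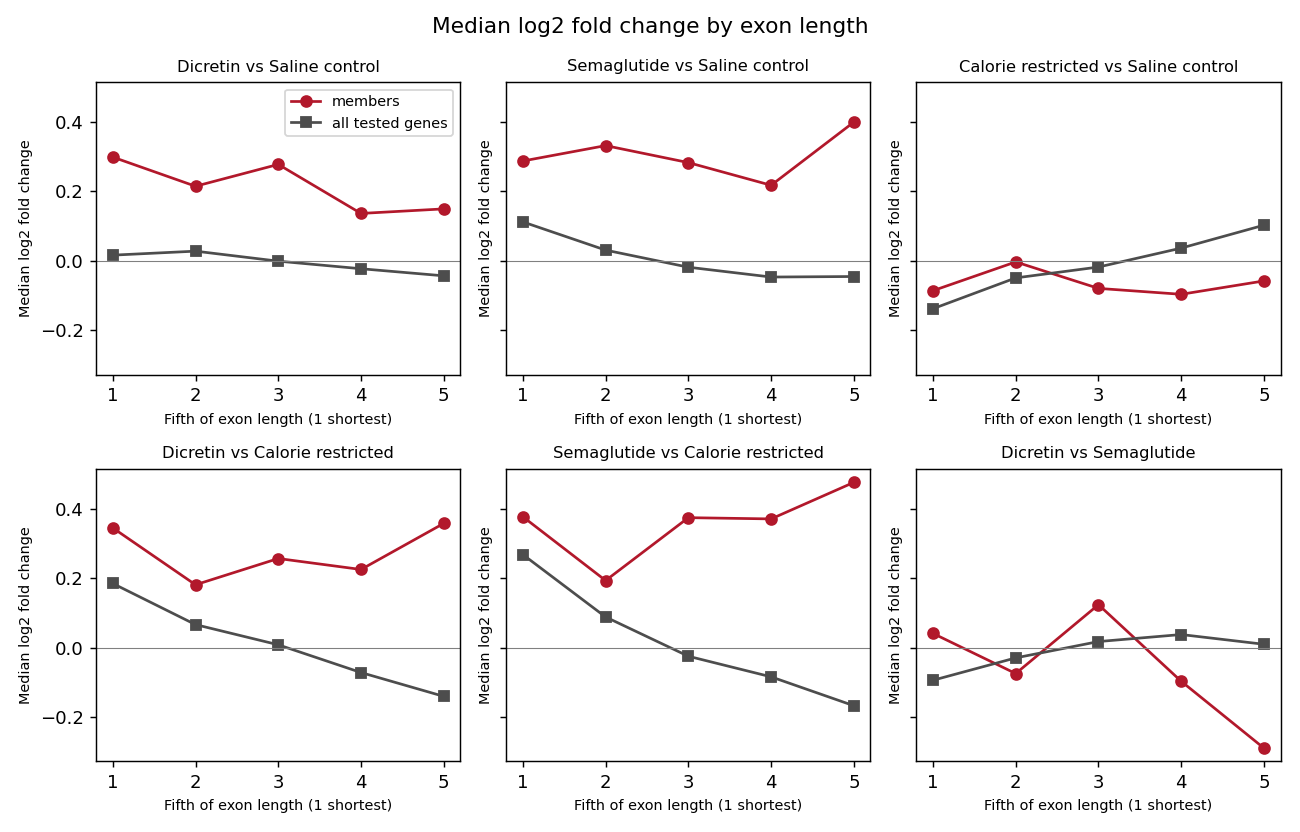
Panels show the 6 comparisons, with the quintile of exon length on the x axis, from 1 (shortest) to 5 (longest), and the median log2 fold change on the y axis for members and for all tested genes. In Semaglutide over calorie restriction all genes run from 0.27 to -0.17, while the members stay between 0.19 and 0.48.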

How the data were processed

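Poly(A) RNA of livers was made into 16 strand-specific libraries, per the labels' protocols. The deposited values are counts of reads per gene, which the authors made with TopHat2 2.1.1 and featureCounts on mm10, per the submitters' processing notes; the strand setting, annotation release and featureCounts version are not given in the sources used here. Totals of 12.144 to 18.755 M counts limit the precision of low genes.

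Genes were tested with edgeR 4.0.16 in R 4.3.3 (filterByExpr, TMM, robust quasi-likelihood fit, 1 mean per group over 16 libraries, Benjamini-Hochberg adjustment over 12910 genes, threshold 0.05). The standard error was the log2 fold change divided by the square root of F. For the length-corrected fit, a loess trend (span 0.5) of each library's deviations on log2 exon length entered as an offset. Exon lengths and gene coordinates came from GENCODE M21 on GRCm38. DESeq2 1.42.0, limma-voom (limma 3.58.1), other scalings, other filters and omitted libraries were alternatives.

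Named members are the 8 with the smallest p in each direction and comparison, the 5 highest and 5 lowest by RPKM, those not tested, and a panel of known roles; genes of other lists are at most 4 a list and comparison. A gene of these lists is not reported here. Members and lists were chosen with earlier results of these data known. Counts for Dicretin against saline were simulated with 12695 genes, of which 65 were changed 1.5-fold, 67 2-fold and 66 4-fold. Of these, 15.4%, 59.7% and 90.9% were recovered, with 8 false calls. In the measured comparison 36.7% of all genes were called, a far larger share than was changed here. The adjusted p therefore works at another cutoff there, and these percentages do not give the recovery in the measured data.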

Additional observations from a re-analysis of the deposited data

Results flagged for a closer look

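Each group of 4 libraries was examined for a highest or lowest library whose gap to the nearest other exceeded Dixon's critical share of the group's range. Of 92 groups examined, 10 met this, where chance flags about 1 in 20 groups.

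Calorie-restricted 8 stood apart from the other 3 calorie-restricted libraries in 3 summary values. Its summed member level was 3075 CPM, against 2466 to 2531 CPM in the others. Its slope of counts on exon length was 0.0038, against 0.0954 to 0.109, and its median member deviation 0.055, against -0.2572 to -0.2363. In the same library, Mrpl1 stood at 41.7 CPM, against 33.05 to 34 CPM, and Mrpl47 at 21.39 CPM, against 13.5 to 14.3 CPM.

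Dicretin 14 was low in Mrpl1 with 23.51 CPM, against 33.74 to 35.51 CPM in the other Dicretin libraries, and in Mrps18a with 36.26 CPM, against 58.2 to 59.67 CPM. Semaglutide 11 was high in Mrpl1 with 67.72 CPM, against 40.89 to 42.66 CPM in the other Semaglutide libraries, and in Mrpl20 with 85.05 CPM, against 42.7 to 46.27 CPM. Mrpl3 stood at 22.93 CPM in calorie-restricted 52, against 17.72 to 18.34 CPM in its group. The part of the length trend in these values was not tested.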

How the results depend on the processing

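No paired analysis was possible because the library numbers all differ between the groups. The length trend by longest transcript, the joint omission of Dicretin 14 and Semaglutide 11 with the trend removed, and the alternatives for the summed level were chosen after seeing the data. The 2 libraries of the joint omission were themselves picked from these data. Counts below are members higher and lower, and where the cause of a change is not given it was not tested. Percentages in brackets are the shares of all genes called in the same comparison and setting. A count without such a share is not to be read as a result about the members.

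For Dicretin over saline (11 and 1), 0 were lower under RLE size factors, DESeq2, no low-count filter, 1 CPM in 4 libraries, the 20 most abundant genes left out, and only the 2 groups compared. The counts were 25 and 3 with the length trend removed (41.3%), 23 and 3 by longest transcript, and 34 and 0 with length and GC splines. They were 39 and 0 without Semaglutide 11 and Dicretin 14 (42.4%), 40 and 2 with the trend also removed (44%), and 4 and 0 at an adjusted p under 0.01 (23.4%). For Semaglutide over saline (0 and 0), splines gave 2 higher. For calorie restriction over saline (0 and 0), upper quartile factors gave 1 lower and DESeq2 1 lower (11.9%). Only the 2 groups gave 2 and 4, and both length trends 1 and 1 each (9.9% for exon length). Splines gave 3 higher and a median log2 fold change of 0.0679. Omission of both libraries gave 1 and 4 (14.4%), or 5 and 4 with the trend removed (15.3%).

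For Dicretin over calorie restriction (13 and 0), 2 were lower with either length trend removed and 1 with splines. Omission of both libraries gave 48 higher (40.3%), or 38 higher and 1 lower with the trend removed (38.8%), and 5 were higher at 0.01 (18.2%). For Semaglutide over calorie restriction (2 and 0), DESeq2 gave 5 higher (10%). Omission of both libraries with the trend removed gave 1 lower (6.73%), and 0.01 gave 0 higher (2.04%). For Dicretin over Semaglutide (3 and 4), 2 were lower with no filter, 0 with only the 2 groups and 0 at 0.01 (19.9%). The number higher was 8 with the trend removed (35.3%), 10 by longest transcript and 12 with splines. Omission of both libraries gave 29 and 0 (34.9%) with a median of 0.3135, and 29 and 1 with the trend removed (34.9%).

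Omitting 1 library at a time gave ranges of 5 to 25 higher and 0 to 2 lower in Dicretin over saline, and 0 to 2 lower in calorie restriction over saline. The ranges were 7 to 34 higher in Dicretin over calorie restriction, 0 to 8 higher in Semaglutide over calorie restriction, and 3 to 13 higher and 1 to 7 lower in Dicretin over Semaglutide, where the median ran from -0.1059 to 0.1918. No called member changed direction in any setting. With the 20 most abundant genes left out, the summed level was 4395 CPM in Dicretin, 4452 in Semaglutide, 3481 in calorie restriction and 3599 in saline. The spread of length slopes was 0.4471, or 0.5556 by longest transcript.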
